A study of Bos taurus with 8 samples.

Results

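Toll-like receptors and the proteins that deliver bacterial lipopolysaccharide (LPS) to them were examined in the endometrium of cows given an intrauterine dose of methylglyoxal, a dicarbonyl that arises from triose phosphates and modifies proteins. The members were 10 genes, TLR2, TLR3, TLR4, TLR5, TLR7, CD14, LY96, MYD88, IRAK4 and LBP, of 16602 gene symbols on the array. Every noncontrol probe that the array files assign to one of them by gene name or description was taken, which gave 30 of 43653 probes. The animals were Bos taurus cows, whose breed and age are not given in the sources used here. Each uterine horn of a cow received 25 mL of fluid on day 1, where day 0 was the day of standing estrus, and endometrium from the corpus luteum's side was biopsied on day 7. The fluid held 5 mM methylglyoxal in 4 cows and 0 mM in the other 4, and the study asked how the intrauterine dose affects endometrial gene expression. Each biopsy came from a separate cow, per the labels, and was hybridised to its own one-colour Agilent array.

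A biopsy holds epithelium, stroma, vessels, leukocytes and, if deep, muscle, so fewer cells of a type and less RNA per cell cannot be told apart here. Values are log2 signals after subtraction of each array's own 75th percentile, and differences are 5 mM minus 0 mM on that log2 scale. On each array 68.3% to 73.2% of probes were well above background by the scanner software's own mark, and precision is limited by there being 8 arrays. Of 14 epithelial markers, 11 were well above background on all 8 arrays, as were 12 of 12 smooth muscle markers. The biopsy of 5 mM replicate 1 stood apart: its mean over the epithelial markers was -3.36 relative to the mean of all arrays, against 0.34 to 0.58 on the other 5 mM arrays and 0.29 to 0.88 on the 0 mM arrays. Smooth muscle markers averaged 2.68 on 5 mM replicate 1, 1.77 on 5 mM replicate 3 and 1.32 on 0 mM replicate 1, while the other 5 arrays ranged over -1.65 to -0.90. These 3 arrays are called muscle-rich below.

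Toll-like receptors recognise microbial molecules at the cell surface or in endosomes. LPS of Gram-negative bacteria is bound by LBP, passed to CD14 and handed to the complex of TLR4 with LY96 (MD-2), after which the adaptor MYD88 and the kinase IRAK4 start the signal that activates NF-kB. TLR2 recognises bacterial lipopeptides, TLR3 double-stranded RNA, TLR5 flagellin and TLR7 single-stranded RNA. In the bovine endometrium, epithelial and stromal cells as well as leukocytes sense bacteria through these receptors, and TLR4 is known for its part in the response to uterine infection after calving.

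The probes on which the results turn are 60 bases long, and their sequences are given to show which stretch each signal was read from. Each is given 5′ to 3′ from the array files, in full or as a 30-base stretch, and capitals mark the longest run that the probe shares, on either strand, with a probe of another gene on the same array. A probe without a gene symbol was counted as one of another gene. The first set holds the 3 probes of CD14, which gave differences of the same sign.
CD14 A_73_105177: catggctgtatgtcagTACCCACAATAAAc
CD14 A_73_116002: gAGAGGGAAGAGGAAtgaattggctcagat
CD14 A_73_P108626: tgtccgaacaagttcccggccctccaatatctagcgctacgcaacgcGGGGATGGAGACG
The second set holds 3 probes of TLR2, of which the first 2 followed each other over the arrays and the third did not.
TLR2 A_73_115997: TCCAGCCACAGTTacttgagagagtgtata
TLR2 A_73_P101506: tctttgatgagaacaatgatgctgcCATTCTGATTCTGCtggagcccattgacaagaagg
TLR2 A_73_P215177: ATGACAGAGGATGAGATGGTTGGATGGCtt
The third set holds the probes by which LBP, TLR4, LY96, MYD88 and IRAK4 are followed below.
LBP A_73_104583: cagaatAGACCATCCTCACCCactaacctg
TLR4 A_73_105309: atcaacccATACCATAAATAAAactcttag
LY96 A_73_103418: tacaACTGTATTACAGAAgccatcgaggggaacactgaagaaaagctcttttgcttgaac
MYD88 A_73_P033026: gccTCTGTTTGTAATTgcccccttctgtat
IRAK4 A_73_112639: aaggtAAGCTCTTACAAGAAgtctgagcga

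Of the 30 probes, 17 were well above background on all 8 arrays, 7 on some of them and 6 on none, where 62.0% of all probes were so on all arrays and 20.8% on none. The comparison used the 21 probes that were well above background on at least 4 arrays, which represent 9 genes. TLR7 had no such probe. In limma's test with Benjamini-Hochberg adjustment over 31108 probes, 0 of the 21 probes had an adjusted p under 0.05, as did 0% of all tested probes. At an unadjusted p under 0.05 the count was also 0 of 21, against 1.91% of all tested probes, or 0.534% that were at least 2-fold apart as well. The lowest unadjusted p among the members was 0.0703. The groups overlapped for all 21 probes, while 1.54% of all tested probes had groups that did not overlap. The values of each array are shown in the plot of the 21 probes by dose.

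**Figure D1:**
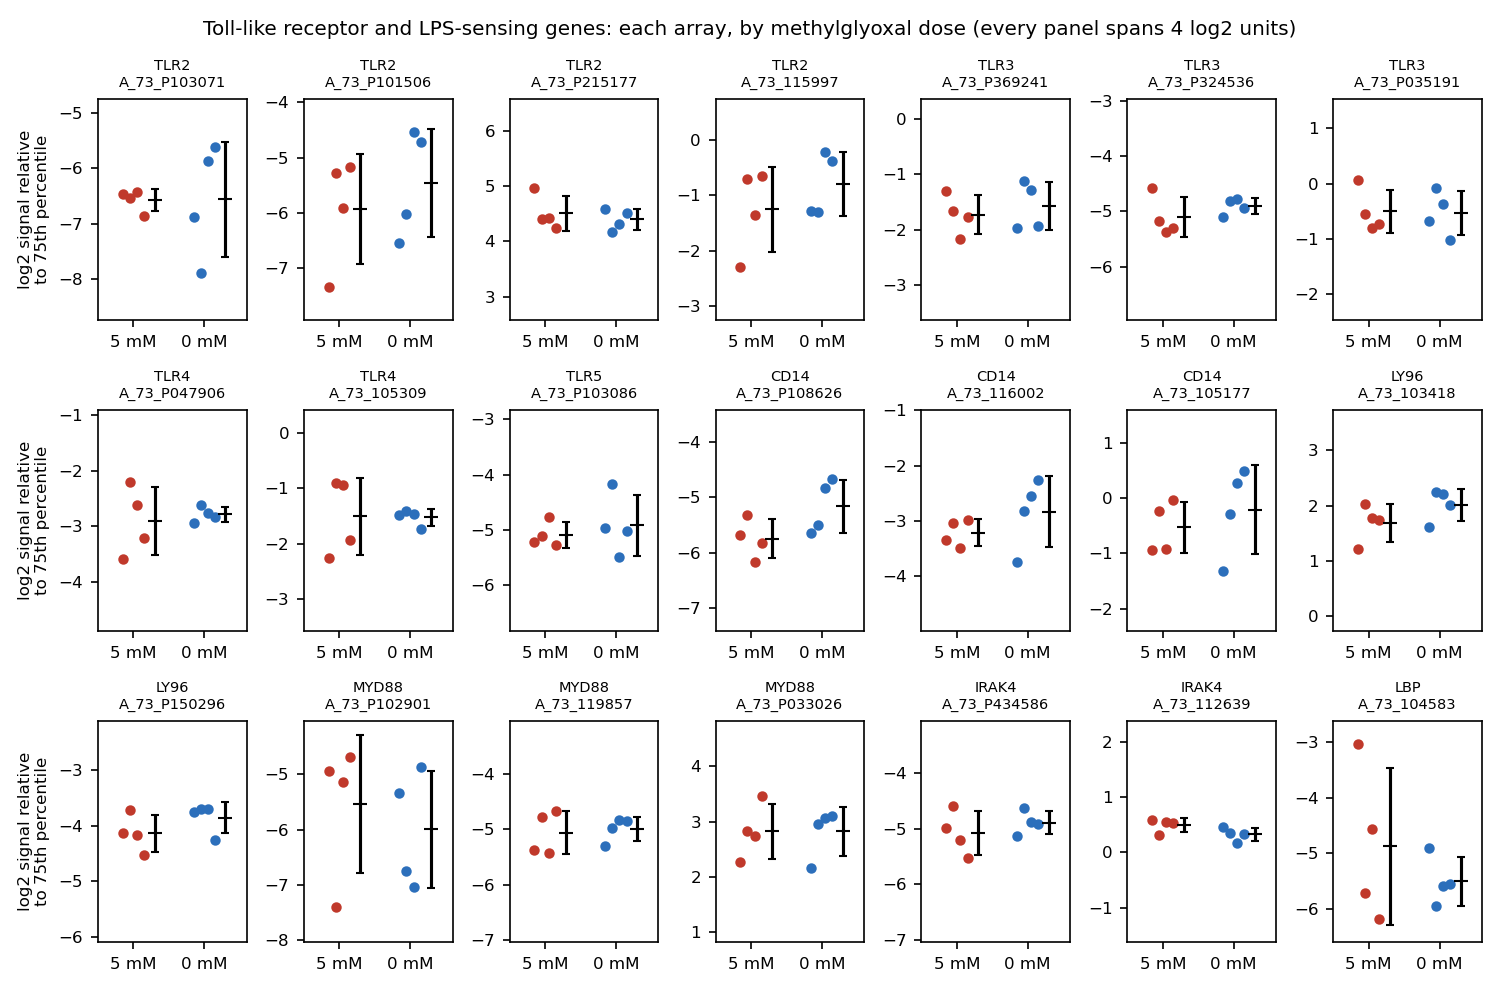
Signal of the 21 tested probes on each array, as log2 relative to the array's 75th percentile, with the 4 cows given 5 mM (red) left of the 4 given 0 mM (blue). Black marks are the mean and SD of a group, every panel spans the same number of log2 units, and in each panel the 2 groups overlap.

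In the 5 mM group 15 of the 21 probes were lower and 6 were higher, where 46.9% of all tested probes were lower. The median of the 21 differences was -0.15, against 0.021 over all tested probes, and they ran from -0.58 to 0.63. Several of these probes belong to 1 gene, so they are not independent. By the probe of highest mean, 4 of the 9 genes were lower and 5 were higher. TLR2 counts as higher by A_73_P215177 (0.11), while the other TLR2 probes gave -0.013, -0.47 and -0.45. Which transcript A_73_P215177 reports is uncertain, as described below. For TLR3, TLR4 and MYD88 the differences counted were only 0.028, 0.015 and -0.0018. Without 5 mM replicate 1 the median was -0.10, and without the 3 muscle-rich arrays it was -0.24. It was -0.063 without 0 mM replicate 2 and -0.029 with another background correction (normexp). Within slide 1, which held replicate 1 of both groups, the median was 0.13, within slide 2 -0.028 and within slide 3 -0.18.

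**Figure D2:**
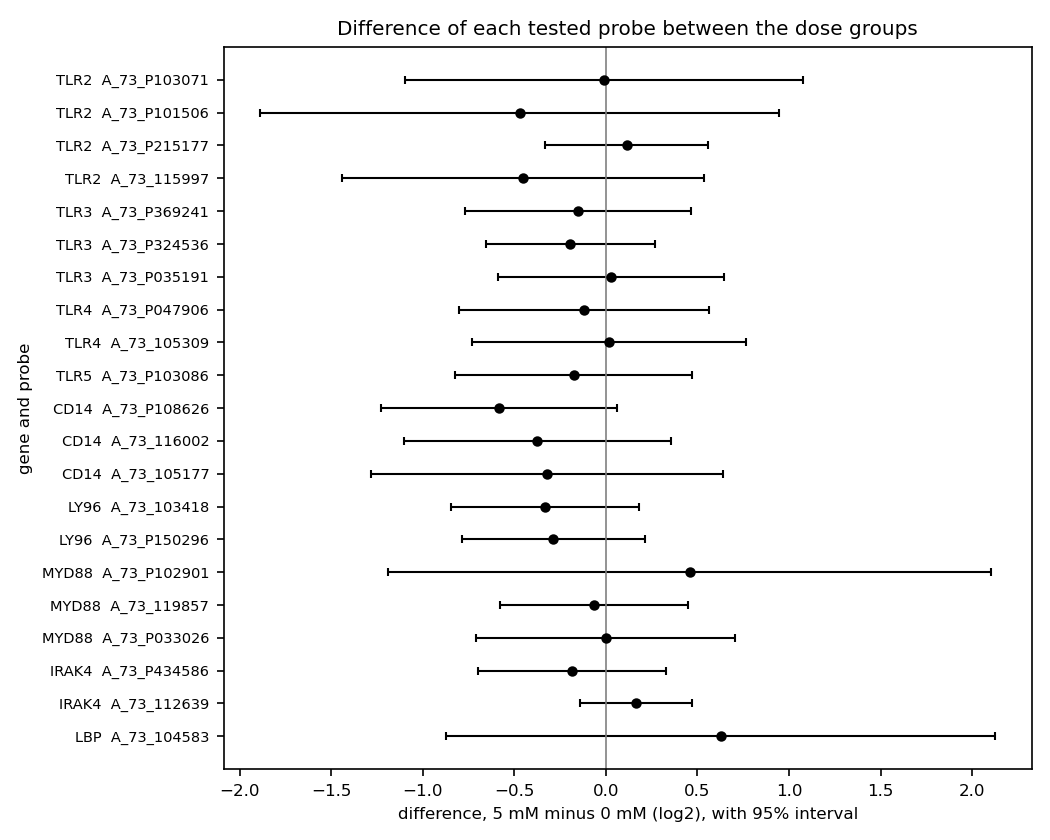
Difference between the groups for each tested probe (5 mM minus 0 mM, log2), with the 95% interval from limma as a bar. All 21 intervals include 0, those of LBP and of MYD88 A_73_P102901 reach above 2 on the log2 scale, and that of IRAK4 A_73_112639 is the narrowest.

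LBP, an acute-phase protein that binds LPS in body fluids, was detected by 1 of its 5 probes. Probe A_73_104583 lies on chr13:67836486-67836545 of build HGSC Btau_3.1, plus strand. It gave -3.03, -5.73, -4.57 and -6.20 in 5 mM replicates 1 to 4, against -4.90, -5.96, -5.59 and -5.57 in 0 mM replicates 1 to 4. The 3 highest values were those of the 3 muscle-rich arrays, and the groups overlapped. The difference was 0.63 ± 0.65 (SE, n = 4 each), with a 95% interval of -0.87 to 2.13 and a limma adjusted p of 0.913. It was 0.0082 without 5 mM replicate 1 and -0.26 without the muscle-rich arrays. Within slides 1, 2 and 3 it was 1.88, 0.048 and 0.18. The other 4 LBP probes were well above background on 0 of the 8 arrays, including A_73_P110026, which starts at base 1755 of the same transcript, where the detected probe starts at base 1680.

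CD14, the monocyte and macrophage co-receptor that presents LPS to TLR4, was lower in the 5 mM group by all 3 of its probes, and none of these differences passed the test. Probe A_73_105177, on chr7:51084103-51084162 of the same build, minus strand, gave -0.94, -0.24, -0.92 and -0.03 in the 5 mM cows, against -1.31, -0.29, 0.27 and 0.49 in the 0 mM cows. The lowest array was in the 0 mM group, and so were the 2 highest. The difference was -0.32 ± 0.42 (95% interval -1.29 to 0.64, limma adjusted p = 0.913, n = 4 each). Leaving out 0 mM replicate 1 gave -0.69, and leaving out 0 mM replicate 4 gave -0.089.

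Probe A_73_116002 was lowest on the same 3 arrays, with -3.34, -3.04, -3.48 and -2.98 in the 5 mM cows and -3.73, -2.81, -2.55 and -2.25 in the 0 mM cows, a difference of -0.37 ± 0.32. Leaving out the same cows gave -0.67 and -0.18. Over the 8 arrays the 2 probes correlated at r = 0.97. The third, A_73_P108626, gave -5.67, -5.31, -6.17 and -5.83 in the 5 mM cows and -5.64, -5.50, -4.84 and -4.68 in the 0 mM cows. Its difference of -0.58 ± 0.28 had the lowest unadjusted p of the members, 0.0703, and a limma adjusted p of 0.913. It exceeded background clearly in 2 of the 5 mM cows and in all 4 of the 0 mM cows, and with normexp the difference was -0.0076.

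The 3 lowest values of CD14 by A_73_105177 were those of the muscle-rich arrays, and these arrays also held the 3 lowest means of the monocyte and macrophage markers. That list averaged -0.65, 0.17, -0.74 and 0.083 in the 5 mM cows, against -0.62, 0.37, 0.72 and 0.67 in the 0 mM cows. All 12 measured markers of 13 were lower in the 5 mM group, with a median of -0.50 and 0 past the test, and 11 were well above background on every array. Their summed level ran from 3.06 to 4.20 in the 5 mM group and from 3.32 to 5.04 in the 0 mM group, on the same log2 scale. MARCO, a macrophage scavenger receptor, was the marker left untested. Other lists were one-sided too: 14 of 14 epithelial markers were lower in the 5 mM group (median -1.11). All 12 smooth muscle markers were higher (median 1.098), and 0 of either list passed the test. Of the tested endothelial markers 5 of 9 were lower, and of the fibroblast markers 3 of 8, where 48.2% of all tested genes were lower. By these counts a one-sided shift was thus not particular to the macrophage markers. On the epithelial list, though, 5 mM replicate 1 averaged -3.36, while the other 5 mM arrays, at 0.34 to 0.58, lay inside the 0 mM range of 0.29 to 0.88. The part of macrophage number in the CD14 values was not tested. Without the muscle-rich arrays the differences of the 3 CD14 probes were -0.29, -0.47 and -0.57. Within slide 1 they were 0.37, 0.40 and -0.037, within slide 2 -0.23, -0.36 and -0.15, and within slide 3 -0.97, -0.98 and -1.32, for A_73_105177, A_73_116002 and A_73_P108626 in that order.

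**Figure D3:**
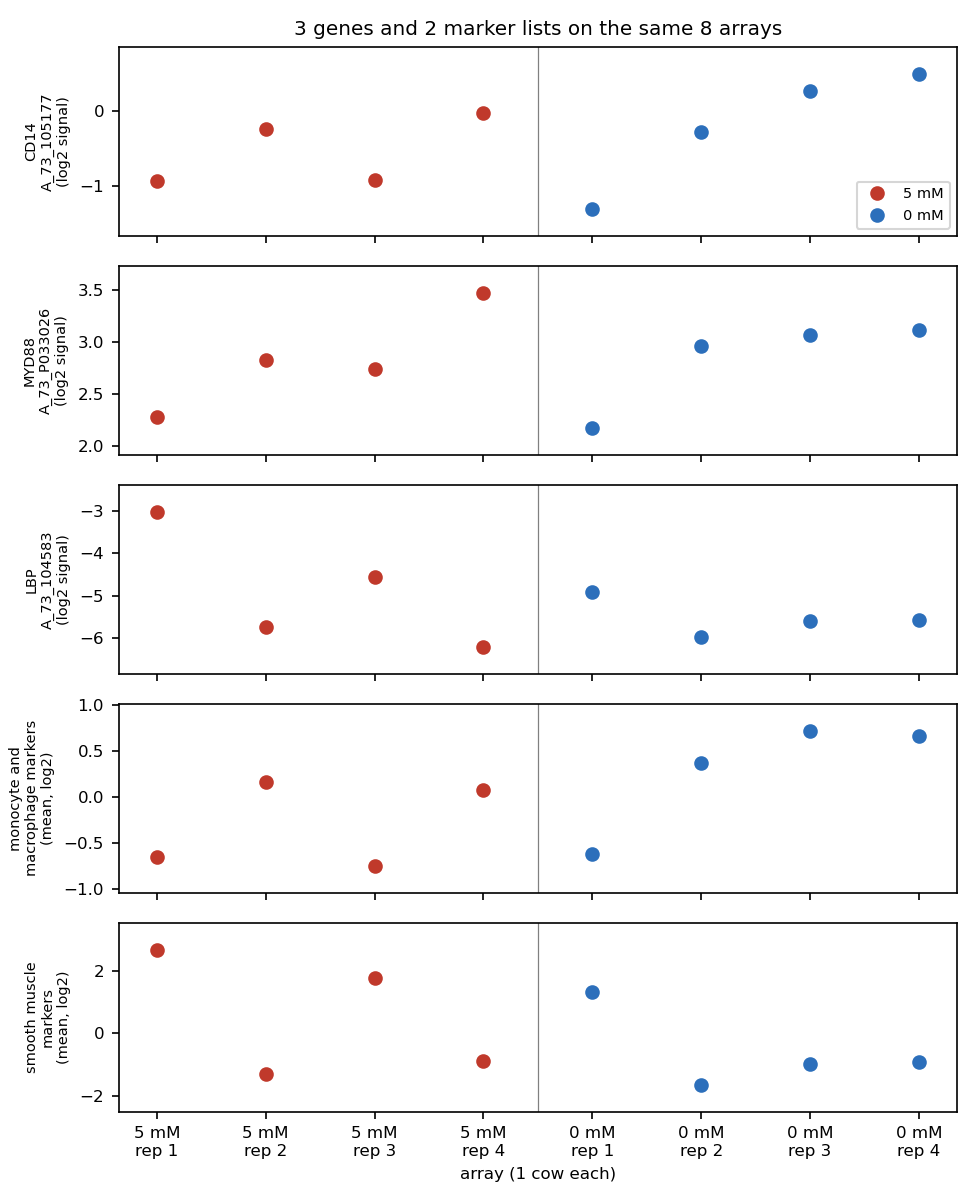
CD14 (A_73_105177), MYD88 (A_73_P033026) and LBP (A_73_104583) on each array (log2 relative to the 75th percentile), above the means of the monocyte and macrophage markers and of the smooth muscle markers (log2, relative to the mean of the 8 arrays), with 5 mM cows (red) left of 0 mM cows (blue). The 3 arrays highest in smooth muscle are 5 mM replicates 1 and 3 and 0 mM replicate 1. They are the 3 lowest for these CD14 and MYD88 probes and the macrophage markers and the 3 highest for LBP. Not every probe follows this order: of the 3 lowest arrays, 2 are muscle-rich for CD14 A_73_P108626 and 0 for MYD88 A_73_P102901.

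TLR4, the LPS receptor, had nearly equal group means and a wider spread among the 5 mM cows. Probe A_73_105309, on chr8:112437692-112437751, plus strand, gave -2.26, -0.91, -0.94 and -1.93 in the 5 mM cows, against -1.47, -1.41, -1.46 and -1.74 in the 0 mM cows. All 4 values of the 0 mM group lay inside the range of the 5 mM group. The means were -1.51 ± 0.69 in 5 mM cows and -1.52 ± 0.15 in 0 mM cows (SD, n = 4 each), and whether the spreads differ was not tested. The difference was 0.015 ± 0.32, with a 95% interval of -0.73 to 0.76, or 0.601-fold to 1.70-fold (limma adjusted p = 0.993).

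The second TLR4 probe, A_73_P047906, followed the first over the 8 arrays (r = 0.92). It gave -3.60, -2.20, -2.61 and -3.21 in the 5 mM cows and -2.95, -2.62, -2.75 and -2.82 in the 0 mM cows, so the 0 mM group again lay inside the range of the 5 mM group. Its difference was -0.12 ± 0.30. Probe A_73_P103081, which starts at base 988 of the transcript, nearer its 5′ end than the other 2, was well above background in 0 of the 5 mM cows and 1 of the 0 mM cows and was not tested. Without 5 mM replicate 1, the array poorest in epithelium, the 2 tested probes differed by 0.27 and 0.11. Within slide 1 the first probe differed by -0.79, within slide 2 by 0.53 and within slide 3 by 0.31.

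LY96 encodes MD-2, the subunit of the TLR4 complex that holds the lipid part of LPS. Probe A_73_103418 gave 1.21, 2.02, 1.77 and 1.73 in the 5 mM cows, against 1.61, 2.24, 2.20 and 2.02 in the 0 mM cows. The lowest value was that of 5 mM replicate 1 and the next lowest that of 0 mM replicate 1, so the groups overlapped. The difference was -0.33 ± 0.22, with a 95% interval of -0.84 to 0.18, or 0.557-fold to 1.13-fold (limma adjusted p = 0.913, n = 4 each). The difference was -0.17 without 5 mM replicate 1 and -0.40, -0.20 and -0.26 within slides 1, 2 and 3. A second probe, A_73_P150296, gave -4.14, -3.72, -4.17 and -4.52 in the 5 mM cows and -3.75, -3.69, -3.69 and -4.26 in the 0 mM cows. It too was lower in the 5 mM group, with a difference of -0.29 ± 0.22, although the 2 probes followed each other less closely over the arrays (r = 0.44). The third LY96 probe, A_73_117819, was not well above background on any array. The files give no genome position for the LY96 probes.

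TLR2, the receptor for bacterial lipopeptides, was measured by 4 probes whose patterns over the arrays differed. Probe A_73_115997, on chr17:4281570-4281629, minus strand, gave -2.30, -0.71, -1.35 and -0.65 in the 5 mM cows, against -1.29, -1.31, -0.23 and -0.39 in the 0 mM cows, a difference of -0.45 ± 0.43. Probe A_73_P101506 gave -7.34, -5.28, -5.91 and -5.17 in the 5 mM cows and -6.54, -6.02, -4.54 and -4.71 in the 0 mM cows, a difference of -0.47 ± 0.61. These 2 probes followed each other (r = 0.97), both with 5 mM replicate 1 lowest and 0 mM replicate 3 highest. Without 5 mM replicate 1 their differences were -0.10 and 0.0014.

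Probe A_73_P215177, on chr17:4282206-4282265, minus strand, between those probes in position, ran the other way. It gave 4.97, 4.40, 4.43 and 4.24 in the 5 mM cows, against 4.58, 4.18, 4.31 and 4.52 in the 0 mM cows, a difference of 0.11 ± 0.19. Its correlation with either of the pair was r = -0.66. It is the probe of highest mean and so stands for TLR2 wherever 1 probe per gene is used. Its first 28 bases, in capitals above, are also present on the opposite strand in A_73_P504858, a probe for NEPN, which was well above background on all 8 arrays. It is the 1 member probe that shares at least 20 bases with a probe of another gene, as do 4.03% of all probes on the array. That share counts probes without a gene symbol as probes of another gene. Which transcript A_73_P215177 reports was not tested. The fourth TLR2 probe, A_73_P103071, was well above background on 4 arrays and differed by -0.013 ± 0.47.

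TLR3, the endosomal receptor for double-stranded RNA, signals through TICAM1 rather than MYD88. Probe A_73_P035191, on chr27:17500312-17500371, plus strand, gave 0.07, -0.55, -0.80 and -0.73 in the 5 mM cows, against -0.67, -0.08, -0.36 and -1.01 in the 0 mM cows. The highest value was that of 5 mM replicate 1 and the lowest that of 0 mM replicate 4, and the difference was 0.028 ± 0.27 (95% interval -0.59 to 0.65, limma adjusted p = 0.985). The other 2 probes, A_73_P369241 and A_73_P324536, differed by -0.15 and -0.19, and the 3 probes correlated pairwise at r = 0.74 to 0.88. On A_73_P324536 5 mM replicate 1, at -4.57, lay above every 0 mM array, and the other 5 mM arrays, at -5.17 to -5.37, lay below every 0 mM array, at -5.10 to -4.78. Without 5 mM replicate 1 that probe's difference was -0.37.

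TLR5, the flagellin receptor, was tested by 1 probe, A_73_P103086 on chr16:23622915-23622974, minus strand. It gave -5.21, -5.12, -4.77 and -5.28 in the 5 mM cows, against -4.97, -4.17, -5.49 and -5.02 in the 0 mM cows. Both the highest and the lowest array were in the 0 mM group, and the difference was -0.18 ± 0.28 (95% interval -0.82 to 0.47, limma adjusted p = 0.919). The second TLR5 probe was well above background in 1 cow given 5 mM and 2 given 0 mM.

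TLR7, the endosomal receptor for single-stranded RNA, was near background throughout. Probe A_73_118687, on chrX:82122936-82122995, plus strand, was well above background in 1 cow given 5 mM and 2 given 0 mM, and A_73_P103096 on none. The first of them gave -7.96, -6.33, -7.71 and -7.63 in the 5 mM cows, against -6.94, -6.47, -6.61 and -6.05 in the 0 mM cows. Of the 5 mM arrays, replicate 2 lay among the 0 mM arrays and the other 3 lay below them. Neither probe entered the test.

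MYD88, the adaptor used by all of these receptors except TLR3, had nearly equal group means. Probe A_73_P033026, on chr22:11731208-11731267, plus strand, gave 2.27, 2.82, 2.73 and 3.47 in the 5 mM cows, against 2.17, 2.96, 3.07 and 3.11 in the 0 mM cows. The 3 lowest values were those of the muscle-rich arrays, and the highest was that of 5 mM replicate 4. The difference was -0.0018 ± 0.31, with a 95% interval of -0.71 to 0.71, or 0.611-fold to 1.63-fold (limma adjusted p = 0.999, n = 4 each). Probe A_73_119857 varied with it (r = 0.83) and differed by -0.065 ± 0.22. The third probe, A_73_P102901, was well above background on 5 arrays, had the largest within-group SD of the tested member probes when both groups were pooled (1.15, against 1.05 for LBP) and differed by 0.46 ± 0.71.

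IRAK4, the kinase that MYD88 recruits first, had the probe that varied least within the groups among the tested probes of the members. Probe A_73_112639, on chr5:39903916-39903975, minus strand, gave 0.58, 0.31, 0.54 and 0.53 in the 5 mM cows, against 0.46, 0.36, 0.16 and 0.32 in the 0 mM cows. The 3 highest arrays were 5 mM cows, while 5 mM replicate 2 lay within the 0 mM range. The 8 values spanned 0.42 log2 units, and 4.13% of tested probes had a smaller spread within groups. The difference was 0.16 ± 0.13 (95% interval -0.14 to 0.47, or 0.906-fold to 1.39-fold, limma adjusted p = 0.913). Within slides 1, 2 and 3 it was 0.13, 0.046 and 0.21. The second probe, A_73_P434586, whose 60 bases span 448 bases of the genome (chr5:39921686-39922133), differed by -0.19 ± 0.22 and ran against the first over the arrays (r = -0.62). Its within-group SD was 0.31, against 0.12 for the first probe.

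Beyond the members, 116 other genes of the pathway were listed by role, of which 113 were on the array and 102 were tested. The lists were written with earlier results of these data known. Of these 102 genes, 0 passed the adjusted threshold, 65 were lower and 37 higher in the 5 mM group. That is 63.7% lower, against 48.2% of the 12776 tested genes, and the median difference was -0.066, against 0.011 over all tested genes. At an unadjusted p under 0.05 there were 5 (4.90%), all lower, against 1.87% of all tested genes in either direction and 1.03% that were lower. Of these 5, CXCL10 stayed under 0.05 in 20 of 20 fits, CCL4 in 12 of 20, BPI in 12 of 19, AOAH in 9 of 20 and PTGS2 in 8 of 20. These fits share arrays and include the main fit, by which the 5 genes were picked. The median was -0.010 with arrays shifted to their median, where all tested probes had a median of 0.077, and -0.14 without 0 mM replicate 1. Within slide 1 the median was 0.096, within slide 2 -0.15 and within slide 3 -0.091.

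The genes for LPS binding, accessory receptors and LPS breakdown had a median of -0.57, with 6 of 7 lower. Among them BPI, which encodes a neutrophil protein that binds and neutralises LPS, gave -4.56, -4.62, -6.18 and -4.69 in the 5 mM cows, against -4.01, -4.68, -2.98 and -3.23 in the 0 mM cows. The value of 0 mM replicate 2 lay among the 5 mM values. The difference was -1.29 ± 0.49 (unadjusted p = 0.0302, limma adjusted p = 0.913), and -0.37 with normexp. With slide as a block limma's unadjusted p was 0.0742. The BPI probe tested was well above background in 3 of the 5 mM cows and 4 of the 0 mM cows. The other BPI probe was so on 0 arrays. AOAH, which encodes the enzyme that deacylates LPS, gave -3.21, -2.86, -3.23 and -2.78 in the 5 mM cows, against -3.08, -2.41, -2.08 and -2.22 in the 0 mM cows. Of the 0 mM arrays, replicate 1 lay among the 5 mM values and the other 3 lay above them. The difference was -0.57 ± 0.24 (unadjusted p = 0.0483, limma adjusted p = 0.913), and -0.37 with normexp. The other AOAH probe was well above background on 1 array and was not tested.

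Of 22 tested genes that LPS is known to induce, 15 were lower, with a median of -0.42. CXCL10, a chemokine that attracts T cells, gave -1.32, -0.36, 0.02 and 0.09 in the 5 mM cows, against 1.34, 1.46, 0.41 and 0.97 in the 0 mM cows. All 4 cows given 5 mM lay below all 4 given 0 mM, the 1 such gene among the 102 (0.980%), against 1.61% of all tested genes. The difference was -1.43 ± 0.37 (unadjusted p = 0.00437, limma adjusted p = 0.913), and a second CXCL10 probe gave -1.57.

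CCL4, a chemokine of macrophages and lymphocytes, gave -5.57, -3.33, -4.50 and -4.24 in the 5 mM cows and -3.50, -1.62, -3.47 and -3.45 in the 0 mM cows, a difference of -1.40 ± 0.58 (unadjusted p = 0.0415, limma adjusted p = 0.913). Of the 5 mM arrays, replicate 2 lay within the 0 mM range, and a second CCL4 probe gave -0.87. The difference was -0.67 with normexp and -0.94 without 0 mM replicate 2. PTGS2, the inducible cyclooxygenase of prostaglandin synthesis, gave -3.24, -2.64, -3.44 and -2.57 in the 5 mM cows and -2.75, -1.55, -1.98 and -2.60 in the 0 mM cows, a difference of -0.75 ± 0.32 (unadjusted p = 0.0494, limma adjusted p = 0.913). For PTGS2 the groups overlapped as well, and its other probes were well above background on 0 arrays. IL6, CCL20 and IL12B were not tested. Of the markers of other leukocytes, 9 of 12 for T and NK cells were lower (median -0.52), where 48.2% of all tested genes were lower. For B and plasma cells 6 of 6 tested of 8 were lower (median -0.98), and for neutrophils 3 of 7 tested of 10 (median 0.11). Of all these markers 0 passed the adjusted threshold. MS4A1, a B cell marker, was well above background in 0 of the 5 mM cows and 4 of the 0 mM cows. It was thus tested only through the group where it was higher. The part of these leukocytes in the values above was not tested.

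The medians of the signalling genes lay closer to 0, while single genes ran from -1.14 (FOS) to 0.53 (PELI2). The 28 kinases and ubiquitin ligases split into 13 lower and 15 higher (median 0.0070), and the 4 tested adaptors into 1 lower and 3 higher (median 0.055). The 13 transcription factors of the NF-kB, IRF and AP-1 families had 8 lower (median -0.084), the 17 tested negative regulators 13 lower (median -0.067) and the 9 tested chaperones 7 lower (median -0.049). Of all tested genes 48.2% were lower. Of the other Toll-like receptors, TLR6, a partner of TLR2, differed by -0.013 ± 0.18 and TLR10 by -0.071 ± 0.27, while TLR1, TLR8 and TLR9 were not tested. None of these genes had an unadjusted p under 0.05.

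**Figure D4:**
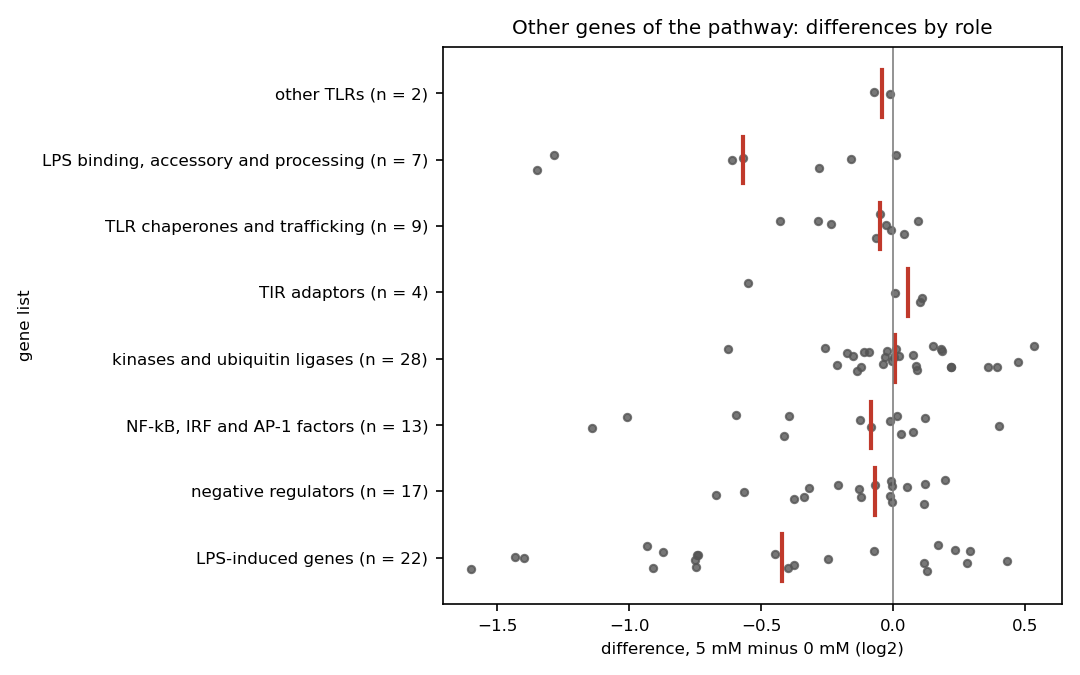
Differences (5 mM minus 0 mM, log2) of the 102 tested pathway genes other than the members, by role, with 1 point per gene and the median as a red bar. The medians of LPS binding and of LPS-induced genes lie at -0.57 and -0.42, and the other medians lie between -0.084 and 0.055.

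Genes whose pattern over the 8 arrays was most like that of a member were sought among 12355 genes by Pearson's r, as a description. For CD14 they were AP1B1, NCF4 and FGF12 (r = 0.98, 0.98 and 0.97), where NCF4 encodes a subunit of the phagocyte NADPH oxidase. For TLR4 they were HM13, C8H9orf152 and MAGED2 (r = 0.96, 0.96 and 0.95), and for LY96 ARHGEF15, STC1 and ARAP2 (r = 0.98, 0.98 and 0.97). For LBP they were HMGB1L1, CNN2 and TMTC2 (r = 0.99 each), where CNN2 encodes a calponin, an actin-binding protein. MYD88 was most like VAMP4, COP1 and MBD4 (r = 0.98, 0.97 and 0.97), and IRAK4 most like RAPGEF6, CDC16 and NPEPPS (r = 0.97, 0.96 and 0.96). The leading matches of TLR3 and TLR5 were DNAJC19 (r = 0.98) and POLA2 (r = 0.95), and that of TLR2, by A_73_P215177, was ZSCAN26 (r = 0.99). All of these r values come from the same 8 arrays, which differ in muscle and epithelial content as given above.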

How the data were processed

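The deposited raw values are spot intensities on a linear scale. Feature Extraction made them by subtracting background and detrending each array, with no scaling of one array to another; this is per the file headers, which name version 11.5.1.1 where the submitters' processing notes name 10.5.1.1. Arrays were of design 023647, and coordinates are on HGSC Btau_3.1, per the file headers. Here control spots and spots marked as outliers were left out, log2 intensities were averaged per probe, and the log2 of each array's 75th percentile (1032 to 1456 intensity units) was subtracted. Gene names came from the files, updated with a RefSeq gene table of ARS-UCD2.0. Probes well above background on at least 4 of 8 arrays were compared with limma 3.58.1 in R 4.3.3 (eBayes without trend, Benjamini-Hochberg over all tested probes, threshold 0.05). The median SE of a difference was 0.24. The deposited log2 value table matched these values centred per probe (r of at least 0.99999772 on every array, column medians -0.024 to 0.133) and was used as an alternative only.

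Exon and untranslated region positions are left out, since no genome of that build was used here. Where a gene had several probes, the list counts used the one of highest mean. The members, gene lists and marker lists were chosen with earlier results of these data known. Named besides the members were the 5 other pathway genes with the lowest unadjusted p and, for each member, the genes with the highest correlation. The fit was tested on simulated data. Replicate numbers appear in both groups, but deviations from the group means correlated at 0.40, 0.36, -0.30 and 0.31 between arrays of the same number, so the comparison was made without pairing; the 3 positive pairs each share a slide. Alternatives were other normalizations, background corrections and filters, a variance trend, array weights, the deposited table, slide and a replicate block. Further ones left out each cow or, chosen after seeing the data, the 3 muscle-rich arrays.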

Additional observations from a re-analysis of the deposited data

Results flagged for a closer look

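In 7 of 68 sets of 4 arrays, 1 array lay far from the other 3 by Dixon's test, which chance does for about 1 in 20 sets. Among the members, LY96 A_73_P150296 was -4.26 in 0 mM replicate 4, against -3.75 to -3.69 in the other 0 mM cows. MYD88 A_73_P033026 was 2.17 in 0 mM replicate 1, against 2.96 to 3.11 in the other 0 mM cows, and MYD88 A_73_P102901 was -7.39 in 5 mM replicate 2, against -5.15 to -4.69 in the other 5 mM cows. BPI was -6.18 in 5 mM replicate 3, against -4.69 to -4.56 in the other 5 mM cows, and CCL4 was -1.62 in 0 mM replicate 2, against -3.50 to -3.45 in the other 0 mM cows. Both remaining sets were marker means of 5 mM replicate 1, -3.36 for epithelium and -0.96 for T and NK cells, against 0.34 to 0.58 and -0.065 to 0.046 in the other 5 mM cows.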

How the results depend on the processing

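No probe passed the adjusted threshold in any of the 20 fits, and the lowest adjusted p was 0.0983, without 5 mM replicate 2. The count of probes that were at least 2-fold apart with an unadjusted p under 0.05, 166, was 361 without a filter, 84 with normexp, 263 with slide as a block and 130 to 557 when 1 cow was left out (327 without 0 mM replicate 1, 557 without 5 mM replicate 2, 409 without 5 mM replicate 4). Whether the replicate numbers pair the cows is not settled, since 3 of the 4 same-number correlations were above 0.1 and 1 was below, and those 3 pairs also share a slide. With a replicate block that count was 352, and the unadjusted p of BPI was 0.0699. The members' median was 0.13 and the pathway median 0.096 within slide 1. Within slides no test was made. Over 395 member differences recomputed with a test, 41 on 13 probes changed sign, all of them short of the adjusted threshold, and those of CD14, LY96, TLR2 A_73_115997, TLR3 A_73_P324536 and IRAK4 A_73_112639 did not. Without a test, within slide 1 the differences of CD14 A_73_105177, CD14 A_73_116002 and TLR3 A_73_P324536 were 0.37, 0.40 and 0.53, and within slide 2 that of TLR2 A_73_115997 was 0.053. The cause was not tested. With array weights the changed values were -0.015 (TLR2 A_73_P215177), -0.10 (TLR3 A_73_P035191), 0.016 (TLR4 A_73_P047906), 0.030 (MYD88 A_73_119857) and 0.11 (MYD88 A_73_P033026). With a median shift they were 0.043 (TLR2 A_73_P103071) and 0.054 (MYD88 A_73_P033026). With normexp they were 0.035 (TLR2 A_73_P103071), -0.064 (TLR4 A_73_105309), 0.11 (MYD88 A_73_119857) and 0.039 (IRAK4 A_73_P434586). With quantile normalization they were 0.025 (TLR2 A_73_P103071) and 0.0020 (MYD88 A_73_119857), and with slide as a block -0.089 (MYD88 A_73_P102901). Without the 3 muscle-rich arrays they were -0.014 (TLR2 A_73_P215177), -0.16 (TLR3 A_73_P035191), 0.027 (TLR4 A_73_P047906), 0.17 (MYD88 A_73_119857), 0.10 (MYD88 A_73_P033026) and -0.26 (LBP). When 1 cow was left out, the ranges of those that changed sign were -0.45 to 0.30 (TLR2 A_73_P103071), -0.83 to 0.0014 (TLR2 A_73_P101506), -0.041 to 0.20 (TLR2 A_73_P215177), -0.29 to 0.00033 (TLR3 A_73_P369241), -0.16 to 0.18 (TLR3 A_73_P035191), -0.35 to 0.11 (TLR4 A_73_P047906), -0.19 to 0.27 (TLR4 A_73_105309), -0.37 to 0.071 (TLR5), -0.20 to 0.055 (MYD88 A_73_119857) and -0.22 to 0.18 (MYD88 A_73_P033026). An unadjusted p under 0.05 among the members arose for CD14 A_73_P108626 in 3 alternatives, CD14 A_73_116002 in 1 and TLR3 A_73_P324536 in 3. Signals near background, as for TLR7 and 4 LBP probes, limit what these arrays can show.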
